A study of Mus musculus with 9 samples.

Results

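The genes described here are 39 genes of skeletal muscle fibers, chosen as the rows of the deposited count table with the symbols of sarcomere proteins, fiber-type isoforms, calcium-handling proteins, muscle enzymes and myogenic regulators. All 39 were found among the 24421 genes of the table. They were chosen with their counts in these tumors known, above all in the fifth R-propranolol library, so their levels and the 9-tumor comparison are a description and carry no test of their own.

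RNA was sequenced from tumors that grew in the right flank of male athymic Nu/Nu nude mice after injection of bEnd.3 cells, an endothelial line of mouse brain that polyoma middle T antigen transformed. Mice received intraperitoneal R-propranolol, the R enantiomer of the beta blocker propranolol, at 6 mg/kg/day or its vehicle, ethanol in DPBS, 5 times a week, beginning on the second day after tumor cell injection. The 9 libraries, 4 of the vehicle group and 5 of the R-propranolol group, are labelled as separate samples, treated as 1 tumor each, and named below by group and replicate number. The titles of vehicle replicates 1 and 2 share a number whose meaning the labels do not give. All tumors derive from 1 cell line. The line and the host are both mouse, so reads of tumor cells and of host tissue cannot be told apart by sequence, and athymic mice lack mature T cells.

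Reads counted in genes ranged from 20599904 to 27852630 per tumor. R-propranolol replicate 5 stood apart from the other 8 tumors: 7.86% of its listed reads had several places in the genome, against 3.46% to 3.99% elsewhere, and its TMM factor, which scales library size, was 0.718 against 0.971 to 1.10. The summed level of 12 endothelial markers was 479 to 1026 CPM (counts divided by the TMM-scaled library size), with 816 CPM in R-propranolol replicate 5. Counting error sets the precision of low values, and intervals given below cover counting error only.

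Skeletal muscle contracts by sliding of myosin filaments along actin filaments within repeated units, the sarcomeres. Calcium released from the sarcoplasmic reticulum binds troponin and frees actin for myosin, and pumps then return the calcium to the store. Adult fibers are classed as fast or slow by the isoforms of myosin, troponin and other proteins that they carry, embryonic and perinatal myosins mark developing or regenerating fibers, and satellite cells are the stem cells of the fiber.

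Many of these genes are known to be driven by myogenic regulators such as MyoD and myogenin, which bind E-boxes (CANNTG), together with MEF2 and serum response factor. The upstream sequences of 4 genes whose counts followed each other across tumors (below) are shown as RefSeq gives them for GRCm38.p6, in the direction of transcription and ending at the start site, with E-boxes in capitals. They stand for actin (Acta1, chr8:123894776-123895025, minus strand), muscle creatine kinase (Ckm, chr7:19410844-19411024, plus strand, where 69 bases in annotated exons were left out before the start), the fast myosin Myh4 (chr11:67237562-67237811, plus strand) and Mybpc1, the slow isoform of myosin-binding protein C (chr10:88605153-88605402, minus strand). Of the printed bases, 188 for Mybpc1 and 12 for Myh4 lie in annotated exons of other genes.
Acta1: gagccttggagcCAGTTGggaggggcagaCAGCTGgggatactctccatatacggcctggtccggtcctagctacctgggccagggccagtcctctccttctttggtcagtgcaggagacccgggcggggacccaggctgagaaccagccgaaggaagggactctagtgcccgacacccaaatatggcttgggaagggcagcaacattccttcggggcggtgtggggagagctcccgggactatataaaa
Ckm: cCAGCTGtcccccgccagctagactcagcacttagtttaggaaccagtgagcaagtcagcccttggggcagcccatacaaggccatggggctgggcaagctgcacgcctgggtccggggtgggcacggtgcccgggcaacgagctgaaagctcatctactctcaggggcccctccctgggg
Myh4: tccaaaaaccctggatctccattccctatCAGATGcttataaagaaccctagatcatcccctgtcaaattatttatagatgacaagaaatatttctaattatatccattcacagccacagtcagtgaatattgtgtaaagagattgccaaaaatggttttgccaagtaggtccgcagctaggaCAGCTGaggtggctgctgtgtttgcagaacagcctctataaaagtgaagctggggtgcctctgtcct
Mybpc1: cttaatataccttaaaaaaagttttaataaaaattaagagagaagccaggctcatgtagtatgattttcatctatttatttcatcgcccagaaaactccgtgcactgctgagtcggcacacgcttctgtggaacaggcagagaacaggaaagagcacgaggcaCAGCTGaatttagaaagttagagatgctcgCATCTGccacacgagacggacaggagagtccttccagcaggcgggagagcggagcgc

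Each of these stretches holds CAGCTG, a form of the E-box that reads the same on both strands. RefSeq windows were at hand for 30 of the 39 genes (36 windows), and 250 bases before the start were searched on both strands. An E-box was found for 26 of the 30 genes, in 31 of their 36 windows, and in 66.2% of 32851 windows of all genes. CAGCTG, which is also counted as an E-box, was found for 14 of the 30 genes, in 16 of 36 windows, and in 13% of all windows. The MEF2 motif was found for 1 gene in 1 window (0.508% of all windows), the CArG box for 3 genes in 3 windows (1.47%) and TATAAA for 8 genes in 8 windows (12.4%). A match describes the letters only and is no measure of binding.

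Reads of skeletal muscle genes were most numerous in 3 tumors, which lay in both groups. Without Des, Tpm2 and Atp2a2, which are also used by other tissues, the other 36 genes took 16.7% of all gene counts in R-propranolol replicate 5, 0.0593% in vehicle replicate 1 and 0.0580% in vehicle replicate 3. In the other 6 tumors they took 0.00127% to 0.00244%. The groups therefore overlapped, with the highest tumor in one group and the next 2 in the other. In bulk tumors, more muscle cells and more RNA per muscle cell cannot be told apart.

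**Figure D1:**
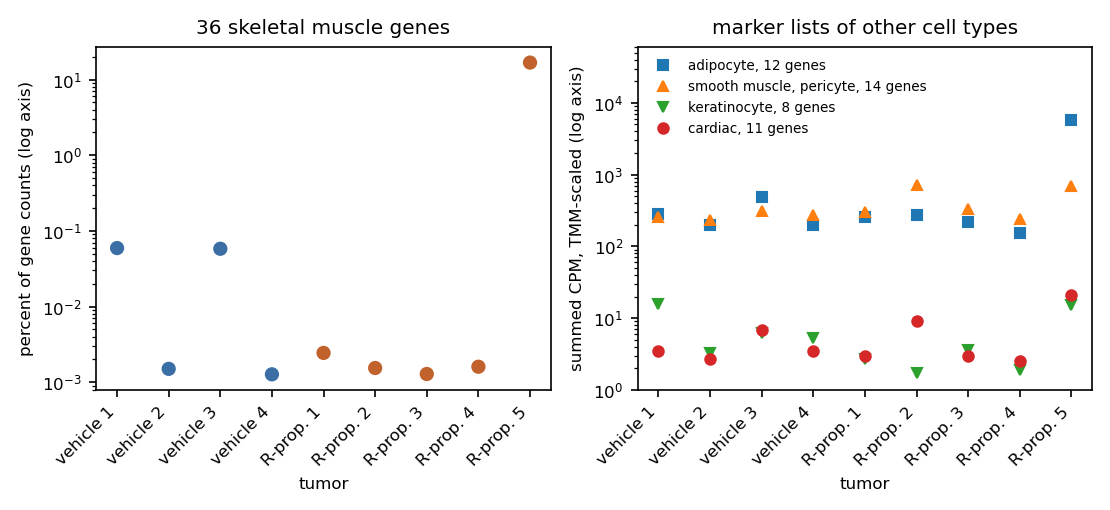
Left, percent of gene counts in 36 skeletal muscle genes (log axis) in each of 4 vehicle-treated (blue) and 5 R-propranolol-treated (orange) tumors; right, summed TMM-scaled CPM (log axis) of markers of 4 other cell types in the same tumors. R-propranolol replicate 5 lies at 16.7%, vehicle replicates 1 and 3 lie at 0.0593% and 0.0580%, and the other 6 tumors lie at 0.00244% or less.

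Of the 39 genes, 38 had their highest level in R-propranolol replicate 5, and 31 were over 100-fold above every other tumor there. The ratio of this tumor to the highest other tumor had a median of 353 over the 39 genes and ranged from 0.558 for Atp2a2 to 884 for Mb. In the highest other tumor Myl2, Myl3, Myh3, Myod1 and Pax7 had only 1 to 3 counts, so their single ratios are not given. For 26 genes, vehicle replicates 1 and 3 and R-propranolol replicate 5 each lay above all 6 other tumors. The 13 others were Myh7, Myl2, Myl3, Tnnt1, Tnnc1, Tnni1, Tpm2, Myh3, Myh8, Atp2a2, Myod1, Myog and Pax7, most of them slow, developmental or regulator genes with few reads. The groups did not overlap for 0 of the 39 genes, with or without R-propranolol replicate 5, where 1.26% of all tested genes did not overlap in 9 tumors and 2.92% in 8.

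**Figure D2:**
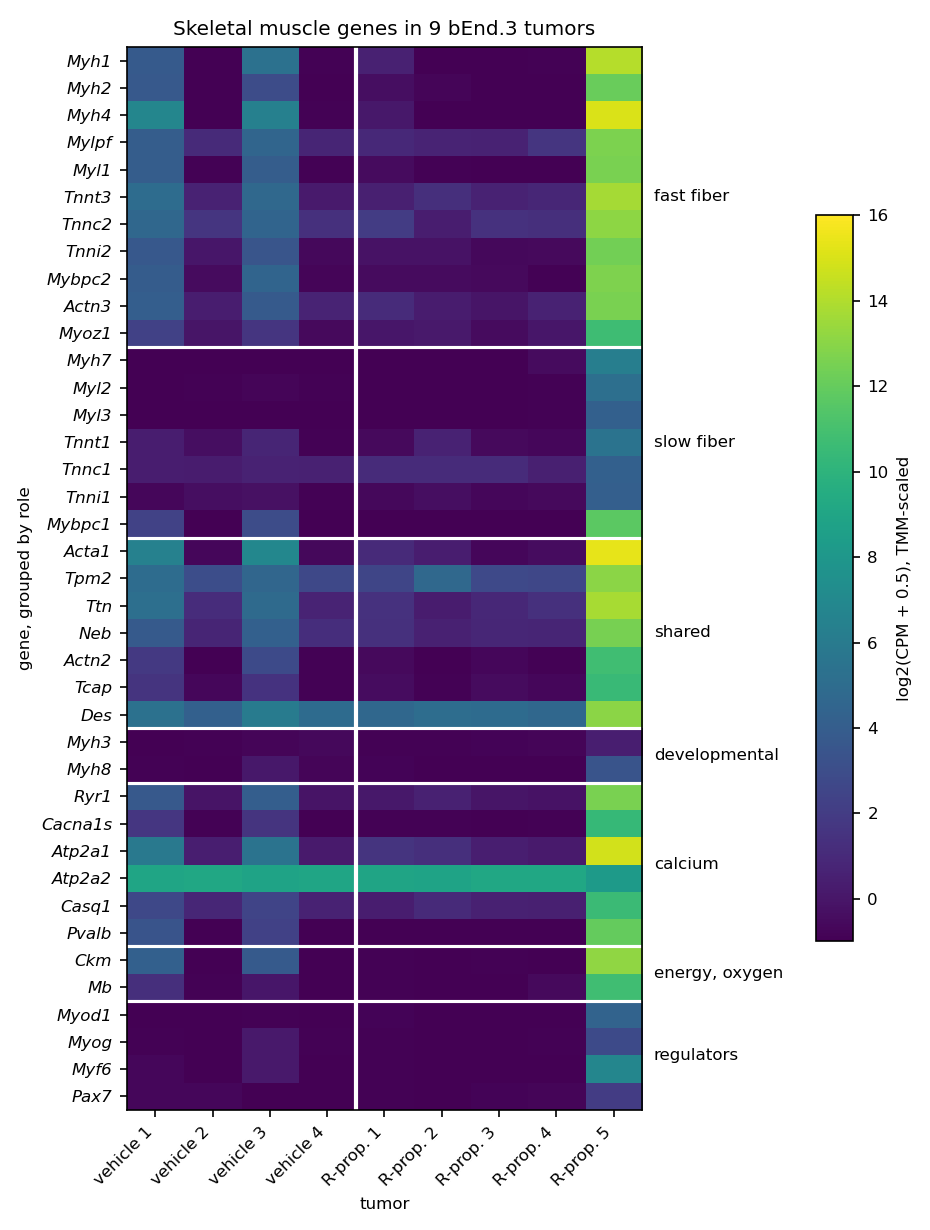
Level of each of the 39 genes (rows, by role) in each tumor (columns), as log2 of TMM-scaled CPM plus 0.5. R-propranolol replicate 5 is brightest for 38 genes, vehicle replicates 1 and 3 come next for most fast-fiber and shared genes, and Atp2a2 is high in all tumors.

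The most counted genes were those of fast fibers and of the sarcomere of all fibers. Acta1, the alpha actin of skeletal muscle thin filaments (chr8:123891769-123894751), had 2092, 3, 3002 and 3 counts in the vehicle group and 44, 19, 3, 6 and 635351 counts in the R-propranolol group. It was the most counted gene of R-propranolol replicate 5, with 3.01% of all counts, and 20 of the 39 genes were among the 50 most counted there. Myh4, the myosin heavy chain of the fastest fibers (type IIb), had 2638, 0, 2171 and 1 counts against 16, 0, 0, 0 and 513127. Vehicle replicates 1 and 3 were thus high and vehicle replicates 2 and 4 at or near 0, while 1 treated tumor held nearly all treated reads. The means were 49.6 ± 58.3 CPM (SD, n = 4) for vehicle and 6780 ± 15160 CPM (SD, n = 5) for R-propranolol, each with an SD above its mean.

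The other adult fast myosins had the same 3 tumors on top. Myh1, which encodes the IIx chain, had 319, 0, 1001 and 1 counts in the vehicle group and 27, 0, 0, 1 and 267606 in the R-propranolol group. Myh2, which encodes the IIa chain, had 296, 0, 180 and 0 against 8, 2, 0, 0 and 67589. Myh3, Myh2, Myh1, Myh4 and Myh8 lie in 1 cluster on chromosome 11 (67078300 to 67308634) and resemble each other in sequence, so reads with several places may be missing from their counts.

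Troponins and light chains of fast fibers followed. Tnnc2, the fast calcium-binding troponin C, had 589, 68, 563 and 43 counts in the vehicle group and 104, 20, 62, 48 and 133757 in the R-propranolol group. It shares 592 of its 800 exon bases with Ube2c, a cell-cycle gene on the other strand. How the counting treated strand is not known from the sources at hand, so reads of the shared bases cannot be assigned to either gene. Tnnt3, the fast troponin T that ties the complex to tropomyosin, had 725, 27, 654 and 14 counts against 25, 49, 30, 32 and 206390. Tnni2, the inhibitory subunit, had 295, 13, 266 and 3 against 11, 10, 4, 4 and 80239. All 3 subunits had reads in every tumor, with the same 3 tumors highest.

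Mylpf, the fast regulatory light chain, had 367, 40, 582 and 26 counts in the vehicle group and 42, 29, 29, 62 and 96806 in the R-propranolol group. Myl1, the fast essential light chain, had 366, 1, 398 and 1 against 6, 1, 0, 0 and 94603. Among the structural genes of fast fibers, Mybpc2 (fast myosin-binding protein C), Actn3 (the alpha-actinin of fast Z-discs) and Myoz1 (a calcineurin-binding Z-disc protein) had 99945, 90844 and 25454 counts in R-propranolol replicate 5. They had 352, 386 and 103 counts in vehicle replicate 1 and 553, 350 and 66 in vehicle replicate 3, against 1 to 47 in the other 6 tumors. Per length of exon, the highest levels of R-propranolol replicate 5 among the 39 genes were those of Acta1 (66345 TPM, counts per kilobase of exon scaled to a common total), Tnnc2 (26817), Tnnt3 (20912), Atp2a1 (20826), Mylpf (14621) and Myh4 (13681).

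Genes of slow isoforms had few reads even in R-propranolol replicate 5, with 1 exception. Myh7, the slow myosin heavy chain, had 0 counts in all 4 vehicle-treated tumors and 0, 0, 0, 5 and 1178 counts in the R-propranolol group. Myl2 and Myl3, the slow light chains, had 558 and 278 counts in R-propranolol replicate 5 and at most 2 and 1 elsewhere. Per length, Myh7 reached 21.9 TPM in this tumor, against 13681 TPM for Myh4.

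The slow troponins did not set vehicle replicates 1 and 3 apart. Tnnc1, the slow and cardiac troponin C, had 19, 19, 26 and 21 counts in the vehicle group and 46, 42, 47, 23 and 271 in the R-propranolol group. Tnnt1 had 18, 7, 30 and 1 against 5, 26, 5, 3 and 654, and Tnni1 had 3, 7, 9 and 1 against 4, 7, 3, 4 and 266. The exception was Mybpc1, the slow isoform of myosin-binding protein C, with 108, 0, 187 and 0 counts in the vehicle group and 0, 0, 0, 0 and 50350 in the R-propranolol group. It had the pattern of the fast genes, and it was 451-fold higher in R-propranolol replicate 5 than in vehicle replicate 3.

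In pairs of genes for the same protein, the 3 tumors had more of the fast isoform, except for the calcium pump. Per length, the fast gene took 99.8% of the Tnnt3 and Tnnt1 pair in R-propranolol replicate 5, 98.2% in vehicle replicate 1 and 96.8% in vehicle replicate 3. For the troponin C pair the fast share was 99.8%, 97.6% and 96.6% in these tumors, and 38.3% to 82.3% in the other 6. In R-propranolol replicate 2, where Tnnc2 and Tnnc1 had 20 and 42 counts, the fast share of counts was 32.3% (95% exact binomial interval 20.9% to 45.3%), so the slow gene was the larger there. The exon bases that Tnnc2 shares with Ube2c limit this pair. Other pairs were mostly fast in these 6 tumors. Per length, Mylpf took 97.9% to 100% against Myl2. Tnnt3 took 72.4% in R-propranolol replicate 2 and up to 93.7% elsewhere, with too few reads in vehicle replicate 4. For myosin-binding protein C the fast share was only 71.3%, 80.3% and 78.8% in the 3 tumors.

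The calcium pumps differed by tumor. Atp2a1, the sarcoplasmic reticulum pump of fast fibers (SERCA1), took 99.4% of the pump pair per length in R-propranolol replicate 5, 16.8% in vehicle replicate 1, 13.9% in vehicle replicate 3 and at most 0.874% in the others. Its partner Atp2a2 (SERCA2) is used by most cells.

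Among 6 myosin heavy chain genes, the isoform mix was not the same in the 3 tumors. Per length, Myh4 took 82.7% in vehicle replicate 1, 66.2% in vehicle replicate 3 and 62.2% in R-propranolol replicate 5. Myh1 took 9.47%, 28.9% and 30.7%, and Myh2 took 7.82%, 4.63% and 6.91%. As shares of counts, Myh1 had exact binomial 95% intervals of 8.80% to 10.9%, 28.2% to 31.3% and 31.4% to 31.6%. The 3 intervals did not overlap, and that of vehicle replicate 1 lay farthest from the others. Spread between replicate pieces of 1 tumor was not measured. R-propranolol replicate 1 had 54 reads over these genes, 27 of them from Myh1 (50% of counts, interval 36.1% to 63.9%), and the remaining tumors had fewer than 20 reads, too few for a share.

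**Figure D3:**
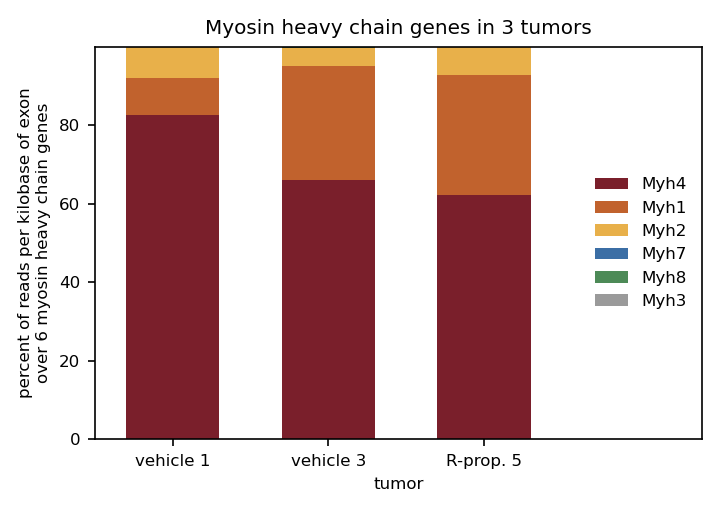
Percent of reads per kilobase of exon (vertical axis) that each of 6 myosin heavy chain genes took in vehicle replicate 1, vehicle replicate 3 and R-propranolol replicate 5. Myh4 takes 82.7%, 66.2% and 62.2%, and Myh7, Myh8 and Myh3 are too small to see.

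Structural genes used by fast and slow fibers followed the fast set. Ttn, which encodes the giant spring protein titin, had 835, 44, 735 and 23 counts in the vehicle group and 61, 18, 37, 51 and 211980 in the R-propranolol group. Neb, which encodes nebulin of the thin filament, had 324, 32, 464 and 40 against 58, 25, 36, 29 and 86584. Both had reads in all 6 other tumors, from 18 to 61 for Ttn and from 25 to 58 for Neb. Actn2, the alpha-actinin of all Z-discs, had 70, 0, 166 and 1 counts against 5, 0, 3, 1 and 26634, and Tcap, the titin cap, had 58, 3, 57 and 1 against 7, 1, 6, 3 and 21914.

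Des and Tpm2 are not particular to skeletal muscle. Des, the intermediate filament of all muscle, had 916, 470, 1698 and 655 counts in the vehicle group and 702, 823, 854, 609 and 130722 in the R-propranolol group. Tpm2, beta-tropomyosin, had 733, 199, 619 and 125 against 152, 656, 171, 142 and 126652. The 656 counts of Tpm2 in R-propranolol replicate 2 came with 19 counts of Acta1 and with 2416 counts of Acta2, the actin of smooth muscle, against 159 to 537 in the other tumors. The summed level of 14 smooth muscle and pericyte markers was 716 CPM in R-propranolol replicate 2, 688 CPM in replicate 5 and 234 to 332 CPM elsewhere, and their part in the Tpm2 level was not tested.

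Excitation and calcium genes had the same order of tumors. Ryr1, the calcium release channel of the sarcoplasmic reticulum, had 306, 11, 413 and 9 counts in the vehicle group and 16, 24, 13, 10 and 91337 in the R-propranolol group. Cacna1s, its voltage sensor, had 64, 1, 62 and 0 against 1, 1, 0, 1 and 19949. Atp2a1 had 1370, 22, 1106 and 14 counts against 71, 48, 24, 17 and 451464, and it shares 763 of 3477 exon bases with Rabep2 on the other strand. Casq1, the calcium store protein of fast fibers, had 138, 34, 132 and 22 counts against 22, 38, 27, 23 and 23761.

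Pvalb, the calcium buffer parvalbumin of fast fibers, was detected in 3 tumors only. It had 243, 0, 113 and 0 counts in the vehicle group and 0, 0, 0, 0 and 61512 in the R-propranolol group. A count of 0 in these libraries allows up to 3 counts. Atp2a2 alone among the 39 genes was not highest in R-propranolol replicate 5. It had 11869, 14473, 11989 and 10643 counts in the vehicle group and 14090, 11835, 15546, 13632 and 4688 in the R-propranolol group, and its level of 310 CPM in replicate 5 was 0.558 times that of the highest other tumor.

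Of the energy and oxygen genes, Ckm, muscle creatine kinase, had 421, 0, 342 and 0 counts in the vehicle group and 1, 0, 1, 0 and 142017 in the R-propranolol group. Mb, myoglobin, which stores oxygen and is most abundant in oxidative fibers, had 46, 1, 13 and 0 against 1, 0, 0, 4 and 26311. Vehicle replicate 3 thus had fewer Mb reads than vehicle replicate 1, although its reads of Acta1 were more numerous.

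Regulators and developmental myosins had few reads. Myf6 (MRF4), the myogenic factor of mature fibers, had 3, 0, 16 and 0 counts in the vehicle group and 1, 0, 0, 0 and 1703 in the R-propranolol group. Myod1, the determination factor MyoD, had 0, 0, 1 and 0 against 2, 0, 0, 0 and 322. Myog, which encodes myogenin of differentiating muscle cells, had 1, 0, 16 and 1 against 1, 0, 0, 1 and 99. Pax7, the marker of satellite cells, had 3, 3, 0 and 0 counts against 1, 0, 2, 2 and 55, and only R-propranolol replicate 5 was above 3 counts.

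Of the developmental myosins, the perinatal Myh8 had 1, 0, 14 and 2 counts in the vehicle group and 2, 0, 0, 0 and 152 in the R-propranolol group, and the embryonic Myh3 had 0, 1, 2 and 3 against 1, 1, 2, 2 and 13. In R-propranolol replicate 5, Myh8 and Myh3 made up 0.00942% and 0.00157% of the 6 myosin genes per length. Vehicle replicate 3 had 0.218% and 0.0606%, from 14 and 2 reads.

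Relative to the reads of the 36 genes, shares of most genes compared lay within 2-fold between the 3 tumors, and many differed by more than counting error. The comparison took the 25 genes whose level in vehicle replicates 1 and 3 was each over 3 times that in any of the 6 other tumors, so tumors and genes were set by these values and no test was made. Across these 25 genes, the log10 shares of vehicle replicate 1 and R-propranolol replicate 5 had r = 0.969, those of vehicle replicate 3 and R-propranolol replicate 5 had r = 0.913, and those of the 2 vehicle tumors had r = 0.906. Gene length and the range from rare to abundant genes are shared by all libraries and raise such values. In each vehicle tumor, 22 of the 25 shares lay within 2-fold of that in R-propranolol replicate 5.

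The genes outside 2-fold in vehicle replicate 1 were Myh1 at 0.335 times the share in R-propranolol replicate 5 (95% interval 0.299 to 0.374), Mb at 0.492 (0.360 to 0.656) and Myf6 at 0.495 (0.102 to 1.45), the last from 3 reads. In vehicle replicate 3 they were Mb at 0.127 (0.0678 to 0.218), Pvalb at 0.474 (0.390 to 0.570) and Myf6 at 2.42 (1.38 to 3.95). Relative to the other genes, vehicle replicate 3 thus had fewer reads of Mb and Pvalb, and more of Myf6. The regulator Myog was left out of the 25 because vehicle replicate 1 had 1 read. Its share in vehicle replicate 3 was 41.7 times that in R-propranolol replicate 5 (22.9 to 71.1), and Myh8 had 23.8 times (12.7 to 41.1). Outside the 25, Myh3, Tnnc1, Tnnt1 and Tnni1 likewise had 39.7, 24.7, 11.8 and 8.73 times. Myl2 and Myod1 had 0.924 and 0.801, and Myh7, Myl3 and Pax7 had 0 reads in vehicle replicate 3. With 13692 reads of the 36 genes there against 3531073, a few reads of any source give a large ratio.

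**Figure D4:**
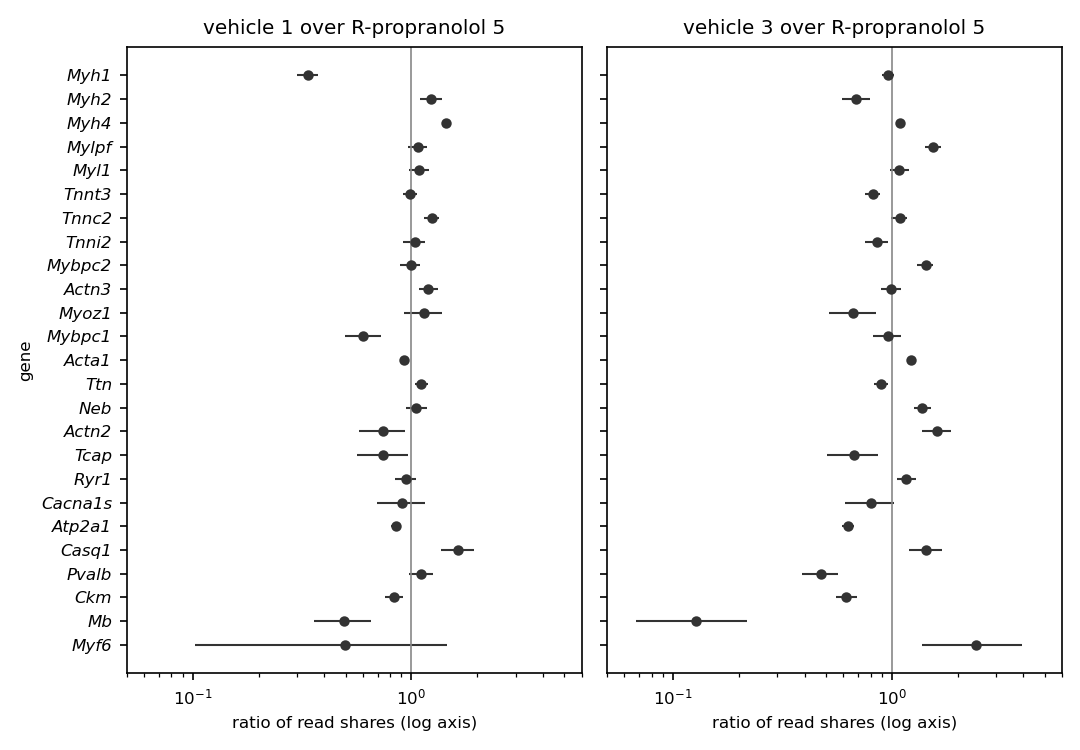
Share of each gene among the reads of 36 skeletal muscle genes in vehicle replicate 1 (left) and vehicle replicate 3 (right), divided by its share in R-propranolol replicate 5 (log axis), for 25 genes, with bars for 95% exact intervals of counting error. Most points lie near 1, with Myh1 at 0.335 on the left and Mb at 0.127 on the right farthest below it.

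The question of the study was what R-propranolol changes in these tumors. With all 9 tumors, 19 of the 39 genes had enough counts for edgeR's quasi-likelihood test and 20 did not. The fitted mean was higher in the R-propranolol group for 18 of the 19 and lower for Atp2a2, with a median log2 fold change of 7.09 (0.03 over all 13901 genes tested). This is the contrast from which the genes were chosen and it rests on R-propranolol replicate 5. At an unadjusted p under 0.05, 5 of the 19 were higher, where 2.01% of all genes were. At that threshold 0 were lower, where 0.288% of all genes were. Adjusted over all genes, 0 of the 19 were under 0.05 in edgeR (smallest adjusted p = 0.876) and 0 in DESeq2, which gave a p for only 1 of the 19.

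Without R-propranolol replicate 5 the direction turned. Of the 15 genes with enough counts, 13 had a lower fitted mean under R-propranolol, with a median log2 fold change of -2.68 (0.01 over all 13743 genes tested). At an unadjusted p under 0.05, 11 were lower, where 1.13% of all genes were, and 1 (Tnnc1) was higher, where 2.65% were. The levels without R-propranolol replicate 5 had also been looked at when the genes were chosen, so nothing is drawn from these shares. Adjusted over all genes, 0 of the 15 were under 0.05 in edgeR (smallest adjusted p = 0.999) and 0 in DESeq2, which had 11 lower and 1 higher at an unadjusted p under 0.05. Of all 13485 genes with a p in DESeq2, 155 were lower and 449 higher at an unadjusted p under 0.05. Without the filter on low counts all 39 genes could be fitted, of which 8 were higher in 9 tumors (2.6% of all genes) and 25 lower in 8 tumors (1.49% of all genes) at this threshold.

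The lower values rested on vehicle replicates 1 and 3. The log2 fold change in 8 tumors was -6.27 for Acta1 (standard error 1.99), -4.12 for Atp2a1 (1.39), -3.66 for Ryr1 (1.19), -3.50 for Tnnt3 (1.17) and -3.43 for Ttn (1.11). Tpm2 and Des, with reads in all tumors, had -0.69 (0.70) and -0.46 (0.34). Atp2a2 had 0.03 (0.09) and Tnnc1 had 0.73 (0.27).

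With vehicle replicates 1 and 3 also left out, a step chosen after the data had been seen, 16 genes could be tested, 11 had a higher and 5 a lower fitted mean, with a median log2 fold change of 0.18. None of them was then under an unadjusted p of 0.05, where 164 of all 14087 genes tested were higher and 70 lower. Acta1 changed to 2.33 and Tnnt3 to 0.60, both in the direction opposite to the 8-tumor value. Only 2 vehicle-treated tumors remain in that fit. With vehicle replicate 1 alone left out, 9 of 16 genes were lower at an unadjusted p under 0.05, where 143 of all 13906 genes tested were. With vehicle replicate 3 alone left out, 9 of 16 were lower, where 114 of all 13892 were.

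**Figure D5:**
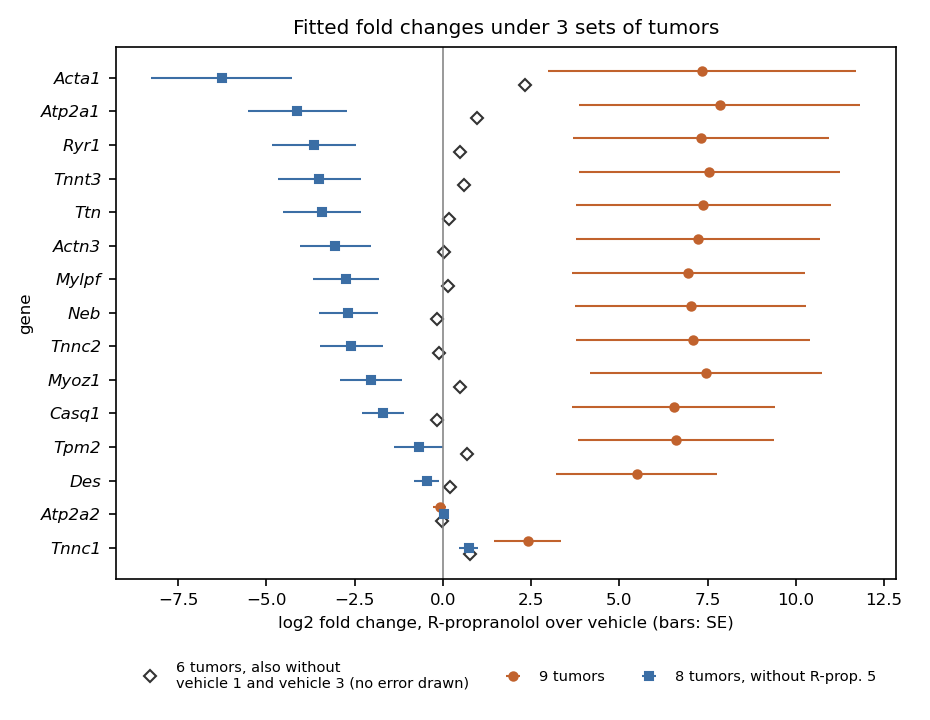
Fitted log2 fold change of R-propranolol over vehicle (horizontal axis) for the 15 genes tested in 8 tumors, with all 9 tumors (circles), without R-propranolol replicate 5 (squares) and also without vehicle replicates 1 and 3 (diamonds); bars are standard errors, not drawn for the diamonds. Acta1 lies at 7.33, -6.27 and 2.33, and Atp2a2 lies near 0 in all 3.

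Other genes of skeletal muscle, in lists by role that were also drawn up with earlier results of these data known, were read in the same way. Of 104 such genes, 60 had enough counts in 9 tumors, 56 of these had a higher fitted mean in the R-propranolol group, and 26 were higher at an unadjusted p under 0.05 (2.01% of all genes were), with 0 past an adjusted p of 0.05 in edgeR. Without R-propranolol replicate 5, 52 had enough counts, of which 23 had a higher and 29 a lower fitted mean. At an unadjusted p under 0.05, 3 of the 52 were higher and 2 lower, where 2.65% and 1.13% of all genes were, and again 0 passed the adjusted threshold. The glycogen phosphorylase of muscle, Pygm, had -2.70 as its log2 fold change in 8 tumors (standard error 0.96), and Synpo2l, a Z-disc protein, had -1.47 (0.60). The 3 higher ones were Mef2d, a transcription factor, at 0.24 (0.08), the filamin gene Flnc at 0.21 (0.08) and the glycogen synthase gene Gys1 at 0.33 (0.14). Many genes of these lists are also used outside muscle. Tpm3, a tropomyosin of slow fibers and of many other cells, had 12152 to 15718 counts in 8 tumors and 4381 in R-propranolol replicate 5, as for Atp2a2, while Tpm1, the alpha-tropomyosin, had 11228 to 14419 and 110536.

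Markers of other cell types moved with the muscle genes in part. All 12 adipocyte genes were highest in R-propranolol replicate 5, with a summed level of 5773 CPM against 154 to 488 CPM in the other tumors. Vehicle replicates 3 and 1 came next, at 488 and 285 CPM, the latter close to R-propranolol replicates 2 and 1 (273 and 257 CPM). The fat hormone Adipoq had 234, 63, 590 and 8 counts in the vehicle group and 171, 101, 7, 19 and 6055 in the R-propranolol group. All tumors thus had reads of it, also those with few of Acta1 (3, 44 and 19 in vehicle replicate 2 and R-propranolol replicates 1 and 2). The 8 keratinocyte genes had a summed level of 15.7 CPM in vehicle replicate 1, 15.1 CPM in R-propranolol replicate 5 and 1.71 to 6.11 CPM elsewhere, but the genes behind the sums differed. In R-propranolol replicate 5, Trp63 and Krt10 held 8.46 and 5.55 CPM and Krt5, Krt15 and Krt1 were at 0, whereas Krt10, Krt5 and Lor led in vehicle replicate 1 (4.62, 2.99 and 2.69 CPM). Krt5, a keratin of basal skin cells, had 70 counts in vehicle replicate 1, 4 in vehicle replicate 3 and 0 in all others. The 10 macrophage genes had a summed level of 4155 CPM in R-propranolol replicate 5, 2164 and 1981 CPM in vehicle replicates 1 and 3, and 817 and 1663 CPM in the other vehicle-treated tumors. R-propranolol replicate 2, with few muscle reads, had 3546 CPM, and the other 3 tumors of that group had 756 to 1610 CPM. The TMM factor of 0.718 raises all CPM of R-propranolol replicate 5 compared with library size alone. In counts the macrophage genes had 62890 of 21084749 reads in genes there and 89188 of 25886686 in R-propranolol replicate 2. By library size alone, R-propranolol replicate 2 was thus the higher of these.

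Cardiac muscle genes stayed low. The 11 cardiac markers had a summed level of 21.3 CPM in R-propranolol replicate 5 and 2.57 to 9.11 CPM elsewhere. The atrial light chain Myl7 and the natriuretic peptide gene Nppb were at 0 in R-propranolol replicate 5, and the cardiac calcium channel Ryr2 had 2 counts. Myh6 and Actc1, which skeletal muscle can also express, had 119 and 95 counts there. The part of any other cell type in the muscle reads was not tested. Adipoq, Krt5, Krt1, Krt15, Lor, Acta2, Myl7, Nppb, Ryr2 and Myh6 were chosen after their values had been seen.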

How the data were processed

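RNA of 9 frozen tumors was extracted with the miRNeasy kit, and libraries were made with the NEBNext Ultra kit and sequenced in pairs. The authors' processing notes name STAR, HTSeq, edgeR and the mm10 build, without versions. The annotation and how strand was treated are unstated in the sources at hand. Deposited values are raw counts for 24421 gene symbols, without normalization. Rows that name no gene were left out of library sizes: 13.4% to 15.4% of the listed reads lay outside genes, 1.81% to 1.98% were ambiguous, and 3.46% to 7.86% had several places. The titles of vehicle replicates 1 and 2 share a number, and the labels do not say whether they came from separate mice. All pairs of libraries within a group differed by more than sampling noise (chi-square per gene 18.8 or more). The p-values measure the spread between these samples.

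The 39 genes and the other lists were chosen with earlier results of these data known. Genes were kept by filterByExpr (minimum count 10, minimum total 15), scaled by TMM and tested with the quasi-likelihood test of edgeR 4.0.16 in R 4.3.3, adjusted by Benjamini and Hochberg over all genes tested, with 4 vehicle-treated against 5 or 4 R-propranolol-treated tumors. The tests were checked on simulated counts in which no single tumor was set apart, so the check does not cover the pattern of these 39 genes. CPM are counts divided by the TMM-scaled library size. Levels per length are counts per kilobase of merged exons in GENCODE for GRCm38, scaled to a common total (TPM), and isoform shares were given where the genes of a pair had at least 20 reads together. Intervals are exact binomial at 95%. Gene places were found for 23334 symbols (95.5%), and 8 of the 39 genes share exon bases with a counted gene on the other strand. Any of the 39 genes could be named. From each other list the 3 genes of highest mean CPM and the 2 with the smallest p in 8 tumors could be named, and those the text turns on are given. Outside all lists they were the 10 genes with the largest ratio of R-propranolol replicate 5 to the highest other tumor at 100 CPM or more. Other genes are said to be chosen after their values had been seen.

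Alternatives were DESeq2 1.42.0 and its size factors, library size alone, scaling without muscle genes, a minimum of 1 CPM in 4 tumors or no filter, each tumor left out in turn, the sum of vehicle replicates 1 and 2, a replicate block, isoform shares from counts, and shares of all listed reads. Leaving out vehicle replicates 1 and 3 was added after the data had been seen.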

Additional observations from a re-analysis of the deposited data

Results flagged for a closer look

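Within a group, a tumor was singled out where the gap between the highest or lowest tumor and its neighbor, divided by the group's range of log2(CPM + 0.5), passed Dixon's 95% critical value. Chance alone singles out about 1 in 20 groups. R-propranolol replicate 5 was singled out among the R-propranolol-treated tumors for all 39 genes, as the lowest for Atp2a2 and as the highest for the others. These genes were chosen for that tumor, so the count is a description. Among the fast-fiber genes the ratio of gap to range was 0.899 for Myh1, 0.951 for Myh2, 0.932 for Myh4, 0.919 for Mylpf, 0.963 for Myl1, 0.937 for Tnnt3, 0.868 for Tnnc2, 0.963 for Tnni2, 0.971 for Mybpc2, 0.908 for Actn3 and 0.945 for Myoz1. Among the genes of slow isoforms the ratio of gap to range was 0.932 for Myh7, 0.982 for Myl2, 0.978 for Myl3, 0.788 for Tnnt1, 0.837 for Tnnc1, 0.927 for Tnni1 and 1 for Mybpc1. Among the structural genes of all fibers the ratio of gap to range was 0.891 for Acta1, 0.791 for Tpm2, 0.917 for Ttn, 0.936 for Neb, 0.963 for Actn2, 0.959 for Tcap and 0.952 for Des. Among the calcium genes the ratio of gap to range was 0.946 for Ryr1, 0.99 for Cacna1s, 0.909 for Atp2a1, 0.717 for Atp2a2, 0.936 for Casq1 and 1 for Pvalb. Among the remaining genes the ratio of gap to range was 0.911 for Myh3, 0.957 for Myh8, 0.993 for Ckm, 0.965 for Mb, 0.965 for Myod1, 0.97 for Myog, 0.987 for Myf6 and 0.929 for Pax7. 

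Among vehicle-treated tumors, replicate 3 was singled out for 2 regulators, Myod1 (ratio 1, from 1 count against 0 in the others) and Myog (ratio 0.89, from 16 counts against 0 or 1). The percent of listed reads with several places in the genome singled out R-propranolol replicate 5 (7.86%, ratio 0.892). No cause of these values was tested.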

How the results depend on the processing

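No gene among the 39 passed an adjusted p of 0.05 under any alternative, where DESeq2 gave an adjusted p for 1 of 19 genes in 9 tumors and 8 of 15 in 8 tumors. With DESeq2, 2 of all genes passed in 9 tumors and 13 in 8. In 9 tumors, 5 of the 39 genes were called higher at unadjusted p under 0.05 (280 of all 13901 genes tested). The count was 3 with library size alone (167 of 13901) and 8 without a filter (509 of 19611). It was 0 with DESeq2, which gave a p for 1 of 19 genes (560 of 13131 with a p). It was also 0 with vehicle replicates 1 and 2 summed (74 of 14173) and with a replicate block (219 of 13901). It ran from 0 to 7 when 1 tumor was left out (0 without any one vehicle-treated tumor, 1 without R-propranolol replicate 5). Calls over all genes then ran from 72 of 14079 (without vehicle replicate 1) to 656 of 13866 (without R-propranolol replicate 4). The median log2 fold change in 9 tumors was -2.13 with the replicate block, which leaves R-propranolol replicate 5 without a partner, and ran from -2.68 to 7.82 when 1 tumor was left out, negative only without R-propranolol replicate 5. In 8 tumors, 11 of the 39 genes were lower (155 of all 13743 genes tested). The count was 25 without a filter (of 39 tested, where 1.49% of all genes were lower) and 2 with the replicate block (45 of 13743). It ran from 9 to 14 when 1 tumor was left out. Calls over all genes then ran from 104 of 13934 (without vehicle replicate 2) to 251 of 13812 (without R-propranolol replicate 2). The count was 0 without vehicle replicates 1 and 3 (70 of 14087). The median was then 0.18 without vehicle replicates 1 and 3, and the direction of 11 genes turned: 0.16 for Mylpf, 0.60 for Tnnt3, 0.033 for Actn3, 0.49 for Myoz1, 2.33 for Acta1, 0.67 for Tpm2, 0.17 for Ttn, 0.20 for Des, 0.49 for Ryr1, 0.97 for Atp2a1 and -0.030 for Atp2a2. Atp2a2 was also negative with library size alone (-0.029) and ran from -0.013 to 0.072 when 1 tumor was left out. Library size alone moved the median of all genes from 0.03 to -0.11 in 9 tumors. The replicate numbers did not pair the samples: deviations of same-numbered tumors had r of -0.02, -0.03, -0.58 and 0.39, and 0 of 4 vehicle-treated tumors correlated best with its own number. As percent of all listed reads, the 36 genes took 0.0474% and 0.0462% in vehicle replicates 1 and 3 and 12.8% in R-propranolol replicate 5. From counts rather than per length, Myh4 took 81.1%, 64.5% and 60.4% of the myosin heavy chain genes. The cause of these changes was not tested. Too few counts left 20 of the 39 genes untested in 9 tumors and 24 in 8 tumors.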

Other observations

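Other genes of muscle gave more detail on vehicle replicate 3. Of the other muscle genes, 25 were each over 3 times higher in vehicle replicates 1 and 3 than in any of the 6 other tumors. Relative to the reads of the 36 genes, their share in vehicle replicate 3 was a median of 1.92 times that in R-propranolol replicate 5, and in vehicle replicate 1 a median of 1.12 times. In vehicle replicate 3 the 95% counting interval lay above 1 for 13 of the 25 and below 1 for 3, and in vehicle replicate 1 for 4 and 1. Genes with few reads in either vehicle tumor could not enter the 25, which favors high ratios. The medians and counts therefore describe a chosen set, and no test was made. The genes with a high share in vehicle replicate 3, chosen after their values had been seen, included Sln, the pump inhibitor sarcolipin, with 36 reads and a ratio of 24.2 (16.7 to 34.2), Myom3, an M-band protein, with 61 reads and 7.21 (5.50 to 9.30), and Csrp3, the muscle LIM protein, with 103 reads and 4.57 (3.72 to 5.55). Xirp2, a repeat protein at filament ends, had 111, 0, 379 and 0 counts in the vehicle group and 2, 0, 0, 0 and 35545 in the R-propranolol group, a ratio of 2.75 (2.48 to 3.04). Chrng, Chrne and Mstn were likewise chosen after their values had been seen. Chrng, the fetal subunit of the acetylcholine receptor, had 0, 0, 9 and 1 counts in the vehicle group and 4, 2, 1, 0 and 0 in the R-propranolol group, while Chrne, the adult subunit, had 42 counts in R-propranolol replicate 5 and at most 3 elsewhere. Mstn, which encodes myostatin, had 23 reads in vehicle replicate 1, 7 in vehicle replicate 3 and 713 in R-propranolol replicate 5.

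Outside all lists, 2424 genes had at least 100 CPM in R-propranolol replicate 5. The 10 with the largest ratio to the highest other tumor were Mylk4, Rpl3l, Apobec2, Kcna7, Scn4b, Lrrc2, Kcnq5, Mylk2, Smtnl1 and Dhrs7c, with log2 ratios of 8.75 or more. Rpl3l, a ribosomal protein known from striated muscle, had 7394 counts there, 15 and 17 in vehicle replicates 1 and 3 and at most 9 in the others. Apobec2, known from striated muscle as well, had 15751, 38, 40 and at most 1. In all 10 the highest other count was that of vehicle replicate 1 or 3.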
